A study of Mus musculus with 18 samples.

Results

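The enzymes that turn lanosterol into cholesterol were measured in mouse liver, as 8 genes in the order of the pathway: Cyp51, Tm7sf2, Msmo1, Nsdhl, Hsd17b7, Ebp, Sc5d and Dhcr7. Every probe set of the Affymetrix Mouse430_2 array that was paired with exactly 1 of these symbols was taken, which gave 16 of the 45037 probe sets that are not controls, and these 8 genes among 18193 genes with a probe set of their own. Cyp51 and Sc5d had 3 probe sets each, Msmo1 had 2, Hsd17b7 had 4, and the other four genes had 1 each. Where a gene had several, the one with the highest mean level stood for it, and the others are given separately. All 8 genes and all 16 probe sets passed the filter on dim signal, which left 13645 genes.

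The livers came from male C57BL/6J mice bought at 5 weeks of age, kept for 1 week on a standard diet and then fed for 20 weeks. The control group received the AIN93G diet. The western group received a Western-style diet with 0.15% cholesterol, 20% butter and 1% soy oil, in which fat gave 39.9% and sucrose 34.0% of the energy, and the western plus quercetin group received that diet with 0.05% quercetin, a plant flavonol. Each group had 6 mice and 1 array per mouse. Fat, cholesterol and sucrose were raised together, so the parts they had in a difference from the control diet cannot be told apart.

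Cholesterol is built from acetyl units through mevalonate, squalene and lanosterol, the first sterol of the chain. The enzymes after lanosterol strip off methyl groups, shift and add bonds in the sterol ring system, and end with the reduction that gives cholesterol. Their genes, like most of the pathway, are textbook targets of the transcription factor SREBP2, which the escort protein Scap carries out of the endoplasmic reticulum when membranes are poor in sterol and which acts on promoters together with the factors NF-Y and Sp1. The liver is a main site of this synthesis, and dietary cholesterol is known to lower it there.

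Because the genes share this known regulation, the promoter sequence of 3 members with large differences between diets (Cyp51, Tm7sf2 and Msmo1) is shown beside that of Sc5d, whose difference did not pass the test. Each is the 250 bases before the annotated start in RefSeq (GRCm38.p6), read on the gene's strand: Cyp51 at chr5:4104698-4104947 on the minus strand, Tm7sf2 at chr19:6067851-6068100 on the minus strand, Msmo1 at chr8:64733579-64733828 on the minus strand and Sc5d at chr9:42264301-42264550 on the minus strand. Capitals mark the NF-Y box CCAAT, which reads ATTGG where it lies on the other strand, and the E-box CACGTG.
Cyp51: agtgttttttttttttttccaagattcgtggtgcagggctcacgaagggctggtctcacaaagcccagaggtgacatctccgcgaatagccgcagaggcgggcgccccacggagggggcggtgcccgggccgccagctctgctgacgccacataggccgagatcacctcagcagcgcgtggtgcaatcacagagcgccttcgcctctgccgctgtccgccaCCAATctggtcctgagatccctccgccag
Tm7sf2: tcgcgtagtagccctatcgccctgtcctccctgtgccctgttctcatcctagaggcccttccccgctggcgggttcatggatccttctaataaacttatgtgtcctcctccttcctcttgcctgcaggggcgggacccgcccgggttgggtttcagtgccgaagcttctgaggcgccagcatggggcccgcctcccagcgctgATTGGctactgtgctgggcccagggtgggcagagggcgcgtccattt
Msmo1: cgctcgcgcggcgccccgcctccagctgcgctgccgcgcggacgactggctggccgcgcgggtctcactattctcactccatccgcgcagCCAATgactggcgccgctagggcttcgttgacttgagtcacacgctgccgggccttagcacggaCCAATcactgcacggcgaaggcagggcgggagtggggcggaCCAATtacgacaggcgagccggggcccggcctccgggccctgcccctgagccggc
Sc5d: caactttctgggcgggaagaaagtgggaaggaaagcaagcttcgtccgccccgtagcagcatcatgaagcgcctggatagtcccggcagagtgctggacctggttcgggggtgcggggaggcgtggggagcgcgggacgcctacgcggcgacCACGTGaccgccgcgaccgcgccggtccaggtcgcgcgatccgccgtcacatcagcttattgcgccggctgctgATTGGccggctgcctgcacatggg

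All 8 genes matched the RefSeq promoter table, with 1 window of 250 bases before to 50 after a start for each gene and 3 windows for Dhcr7. Searched on both strands, CCAAT was in a window of all 8 genes, for Dhcr7 only in the third, against 41.1% of all 27025 genes in the table. Msmo1 held 3 copies, with first bases at -160, -96 and -55 relative to the start, and Cyp51 held 1, at -29. The Sp1 box GGGCGG was in a window of all 8 genes, against 38.2% of all genes. The E-box CACGTG was in Hsd17b7, Sc5d and the second Dhcr7 window, against 8.09% of all genes. The SREBP-type letters TCACNCCAC were in no window of the 8 genes, and in 1.44% of all genes. Only this exact string was searched, so SREBP sites with other letters would be missed. The matches of all these motifs describe the sequence only.

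Control arrays 4 and 5 were nearly identical (r = 0.999662 over all probe sets, against 0.995908 for the next closest pair), so they were averaged and counted as 1 sample, written here as control 4-5, which left 5 control, 6 western and 6 western plus quercetin samples. Levels are log2(intensity + 16) after quantile normalization. Differences come from limma fitted to all 13645 genes over the 3 groups, with Benjamini-Hochberg adjustment over all of them and a threshold of 0.05; the small number of arrays limits their precision. Before scaling, the trimmed mean intensity was 67.2 to 81.3 in control and 80.7 to 102.5 in western samples (exact permutation test, two-sided, p = 0.00866). The log2 ratio of 3' to 5' actin control signal was 0.69 in control and 0.54 in western samples on average (exact permutation test, two-sided, p = 0.039), whereas that of Gapdh differed by -0.014 (p = 0.511, same exact test). The part of these measures in the results was not tested beyond the fits named below.

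The Western diet group had lower levels of 6 of the 8 enzymes than the control group: Cyp51, Tm7sf2, Msmo1, Nsdhl, Hsd17b7 and Ebp fell, and Sc5d and Dhcr7 did not pass the test. Over all genes, 3.16% were lower by this test, and 8.65% changed in either direction, 749 genes upward and 431 downward (1108 and 176 with array medians centred, 3641 and 84 on the values as deposited). The median difference of the 8 enzymes was -0.76 on the log2 scale, beside -0.015 over all genes, and all 8 differences were below 0, as were 53% of all genes. In bulk liver, fewer cells of a type and less RNA per cell cannot be told apart. Albumin (Alb), which marks hepatocytes, was between 12.93 and 13.19 in all samples, and the summed level of 9 hepatocyte markers lay between 15.62 and 15.74 in control and between 15.63 and 15.71 in western samples. Taken singly, 8 of the 9 had a lower mean in western than in control samples, and 4 had an unadjusted p under 0.05 (limma): Ass1 at -0.73 (adjusted p = 0.0174), Cps1 at -0.27 with every western sample below every control sample (adjusted p = 0.0535), Hnf4a at -0.21 (adjusted p = 0.160) and Apob, the only one of the 9 with a higher mean, at 0.42 (adjusted p = 0.0713). Their part in the result was not tested.

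**Figure D1:**
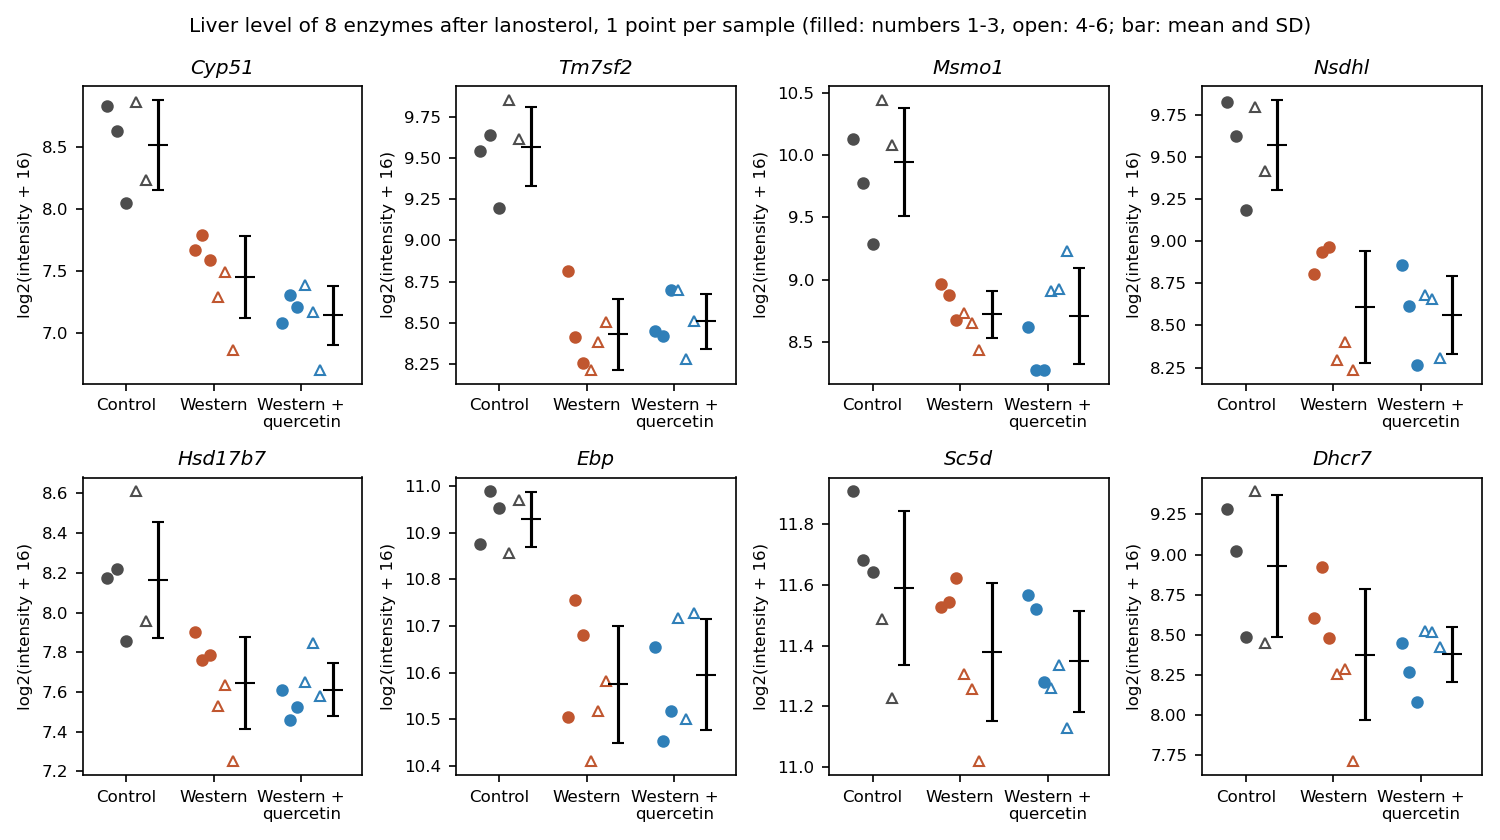
Level of each of the 8 enzymes (y axis, log2(intensity + 16) after quantile normalization) in every sample of the 3 diet groups (x axis); filled circles are samples numbered 1 to 3, open triangles those numbered 4 to 6, and bars show the group mean and SD. For Cyp51, Tm7sf2, Msmo1, Nsdhl and Ebp every western sample lies below every control sample, while for Sc5d the groups overlap.

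Cyp51, the cytochrome P450 that removes the first methyl group of lanosterol, was at 8.83, 8.63, 8.05, 8.86 and 8.23 in control samples 1, 2, 3, 4-5 and 6. In the western group its lowest, median and highest levels were 6.86, 7.54 and 7.79. Every western sample was below every control sample, and western 6 was the lowest of its group. The difference was -1.07 ± 0.17 (log2, SE), a 2.10-fold lower level, with an adjusted p of 0.00114 (limma).

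Tm7sf2, a reductase that saturates the bond left by Cyp51, was at 9.54, 9.64, 9.20, 9.85 and 9.61 in the control samples, in the same order. Its lowest, median and highest western levels were 8.22, 8.40 and 8.81 and western 1 was the highest of its group, so the groups did not overlap. The level was 2.20-fold lower in the western group (-1.14 ± 0.12, log2, SE; limma, adjusted p = 3.21e-05), the smallest p among the 8 enzymes.

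Msmo1, the methylsterol monooxygenase that starts the removal of the remaining methyl groups, showed the widest range among controls, with 10.13, 9.78, 9.29, 10.45 and 10.08. The western samples ran from 8.43 over a median of 8.70 to 8.96. As deposited, before scaling, this corresponds to intensities of 517 to 1324 in control and 338 to 560 in western samples. The groups did not overlap on the normalized scale, and the level was 2.34-fold lower (-1.22 ± 0.19, log2, SE; limma, adjusted p = 0.000892).

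Nsdhl, the dehydrogenase that takes the oxidised methyl group off as carbon dioxide, was at 9.83, 9.63, 9.19, 9.80 and 9.42 in the control samples. Western levels were 8.24 at the lowest, 8.60 at the median and 8.97 at the highest. All western samples lay below all control samples, and the difference was -0.96 ± 0.16 (log2, SE; limma, adjusted p = 0.00125), or 1.95-fold. For these first 4 enzymes control 3 was the lowest control sample each time.

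Hsd17b7, the reductase that restores the hydroxyl group of the sterol, moved less. Its control levels were 8.17, 8.22, 7.86, 8.61 and 7.96, and its western levels ran from 7.25 over 7.70 to 7.90. The highest western sample, western 1, exceeded the lowest control sample, control 3, so the groups overlapped slightly. The difference of -0.52 ± 0.13 (log2, SE) passed the test at an adjusted p of 0.0185 (limma). Without any scaling of the arrays it was -0.23 and did not pass (adjusted p = 0.249), nor did it with arrays centred on their medians (-0.38, adjusted p = 0.103) or with the actin ratio as a covariate (-0.62, adjusted p = 0.0590).

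Ebp, the isomerase that shifts a bond within the ring, had the narrowest control range, with 10.88, 10.99, 10.95, 10.86 and 10.97. The western levels, 10.41 at the lowest, 10.55 at the median and 10.76 at the highest, all lay below it. The difference was small, -0.35 ± 0.077 (log2, SE; limma, adjusted p = 0.00826), or 1.28-fold. Without any scaling it was -0.17 and did not pass (adjusted p = 0.186), nor did it with the actin ratio as a covariate (-0.32, adjusted p = 0.0999).

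Sc5d, the sterol desaturase, was at 11.91, 11.68, 11.64, 11.49 and 11.23 in control and at 11.02, 11.42 and 11.62 (lowest, median, highest) in western samples. The groups overlapped widely, and the difference of -0.21 had a 95% interval from -0.47 to 0.054 (limma, adjusted p = 0.342). Dhcr7, the reductase of the closing step, was at 9.29, 9.02, 8.49, 9.40 and 8.45 in control and at 7.71, 8.38 and 8.92 in western samples. Control samples 3 and 6 and western samples 1, 2 and 3 filled the overlap. The Dhcr7 difference of -0.55 (95% interval -0.96 to -0.14) was larger than that of Hsd17b7 but had the larger spread, and it missed the threshold (limma, adjusted p = 0.0896). It passed when western sample 2 was left out (-0.66, adjusted p = 0.0337) and when all 18 arrays were counted separately (-0.63, adjusted p = 0.0399).

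For 5 of the 8 enzymes every western sample was below every control sample on the normalized scale, against 2.73% of all genes. On the intensities as deposited only Ebp stayed apart among these 5. There the highest western value exceeded the lowest control value for Cyp51 (219 against 209) and Tm7sf2 (501 against 487). The same held for Msmo1 (560 against 517) and Nsdhl (498 against 482). Leaving out any 1 of the 17 samples left the 6 calls in place. The values as deposited carry a shift of 0.22 (log2) in the median of all genes toward the western group. Relative to that median, the differences there were -1.02 for Cyp51, -1.08 for Tm7sf2, -1.20 for Msmo1, -0.91 for Nsdhl, -0.45 for Hsd17b7 and -0.38 for Ebp. With the actin ratio as a covariate, Cyp51 (-1.22, adjusted p = 0.00985), Tm7sf2 (-1.10, adjusted p = 0.00162), Msmo1 (-1.11, adjusted p = 0.0308) and Nsdhl (-1.04, adjusted p = 0.0160) still passed.

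**Figure D2:**
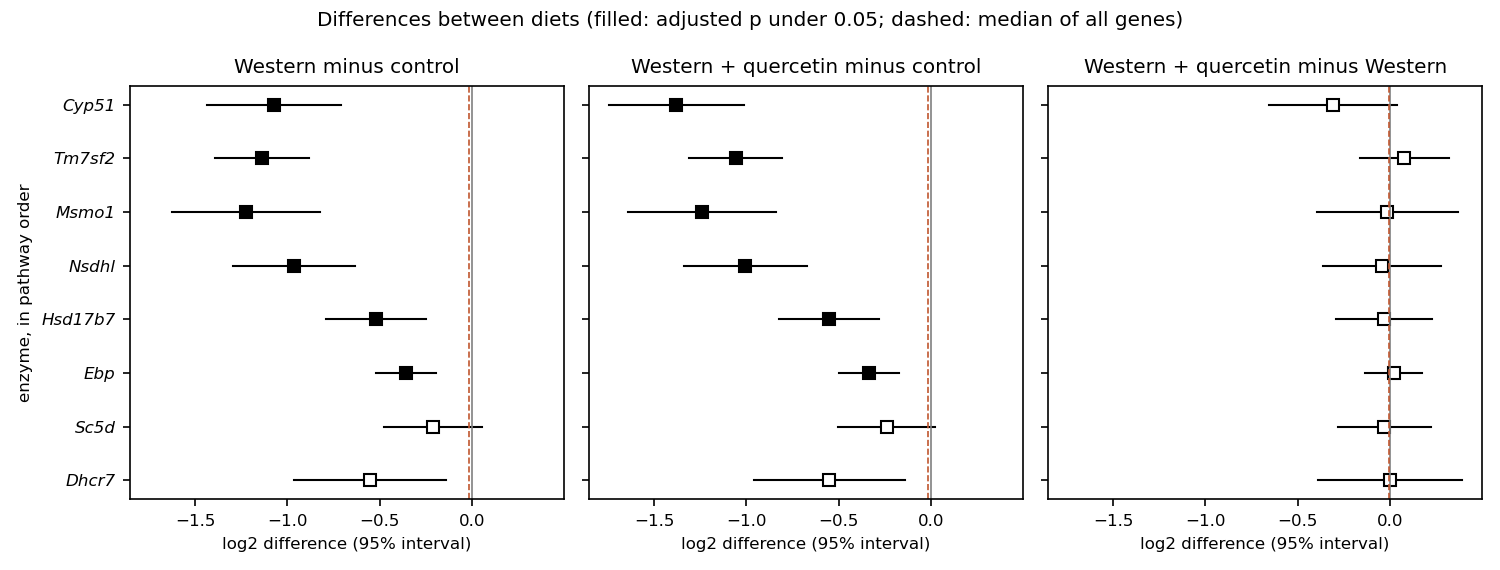
Log2 difference of each enzyme (x axis, with its 95% interval) in pathway order from top to bottom, for the western group minus control, western plus quercetin minus control, and western plus quercetin minus western; filled squares passed adjusted p 0.05 over all genes, and the dashed line is the median of all genes. In both comparisons with control the upper 6 enzymes are filled and Sc5d and Dhcr7 are open, and in the third comparison no square is filled.

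In the western plus quercetin group 6 of the 8 enzymes were again lower than in the control group, beside 1.98% of all genes lower and 5.41% changed, 468 upward and 270 downward (575 and 104 with array medians centred, 3197 and 58 on the values as deposited). This comparison uses the control samples of the first one, so the values are given side by side and are no second test. Cyp51 ran from 6.70 over 7.19 to 7.38 and differed from control by -1.38 (adjusted p = 0.000194, limma), 2.60-fold, where the western group without quercetin was 2.10-fold lower. Tm7sf2 ran from 8.28 over 8.48 to 8.70 (-1.06, adjusted p = 7.62e-05), and Msmo1 from 8.27 over 8.76 to 9.23 (-1.24, adjusted p = 0.0013). Nsdhl ran from 8.27 over 8.64 to 8.86 (-1.01, adjusted p = 0.00159). For each of these 4 enzymes all quercetin samples lay below all control samples on the normalized scale.

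The later steps had smaller differences here as well. Hsd17b7 ran from 7.46 over 7.60 to 7.84 (-0.55, adjusted p = 0.0173) and Ebp from 10.45 over 10.59 to 10.73 (-0.33, adjusted p = 0.0163). Both were without overlap with control, so that 6 of 8 enzymes did not overlap on the normalized scale, against 2.1% of all genes. As deposited, the highest quercetin intensity exceeded the lowest control one for Msmo1 (627 against 517), Hsd17b7 (218 against 180) and Ebp (1896 against 1664). Neither call held without scaling, where Hsd17b7 was at -0.27 and Ebp at -0.15 (adjusted p of 0.190 and 0.233). With arrays centred on their medians they were at -0.45 and -0.33 (0.0817 and 0.0587), and with the actin ratio as a covariate at -0.65 and -0.31 (0.0555 and 0.124), again without passing. Sc5d, from 11.13 over 11.31 to 11.57, differed by -0.24 (95% interval -0.50 to 0.024; limma, adjusted p = 0.299). Dhcr7, from 8.08 over 8.44 to 8.52, differed by -0.55 (95% interval -0.96 to -0.14; limma, adjusted p = 0.113).

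Quercetin added to the Western diet was not followed by a change in any of the 8 enzymes that passed the test, and 0% of the 13645 genes passed in this comparison (limma; 392 genes had an unadjusted p under 0.05, none of them a member). Cyp51 had the largest difference of the 8, -0.31 with a 95% interval from -0.66 to 0.041 (limma, unadjusted p = 0.0804, adjusted p = 0.9999), and all 6 quercetin samples were below the mean of the western group, though the groups overlapped. The other seven differences lay between -0.043 (Nsdhl) and 0.079 (Tm7sf2). Their 95% intervals were narrowest for Ebp, from -0.13 to 0.18, and widest for Dhcr7, from -0.39 to 0.39. With 6 mice a group, true differences anywhere inside these intervals remain compatible with the data. The intervals do not show that the levels were equal.

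The probe sets that were not the brightest of their gene were read separately, in a fit over 33778 probe sets. Between western and control, 9 of the 16 were lower and passed the test, against 1.45% of all probe sets, and all 16 differences were below 0. Between western plus quercetin and control 10 of the 16 passed, against 0.986% of all probe sets, and between the groups fed the Western diet none did, against 0%. Probe sets of a gene share its transcripts and are not independent.

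The 3 Cyp51 probe sets differed by -1.07 (1450646_at, adjusted p = 0.00161), -0.87 (1422533_at, adjusted p = 0.0174) and -0.53 (1422534_at, adjusted p = 0.0628) between western and control (limma). The last of these had a mean control level of 5.29, and the pseudocount of 16 shrinks differences at such levels. The bright Hsd17b7 probe set 1457248_x_at carries the suffix of a design that can bind related transcripts. Of the other three, 1448865_at differed by -0.56 without overlap of the groups (adjusted p = 0.0070), 1417871_at by -0.53 (adjusted p = 0.0363), and the dim 1440057_at by -0.088 (adjusted p = 0.733). For Msmo1 the dim 1459627_at differed by -0.35 (adjusted p = 0.0848), where the bright probe set differed by -1.22. All 3 Sc5d probe sets missed the threshold, with differences of -0.21 (1451457_at), -0.13 (1434520_at) and -0.025 (1424709_at) and adjusted p of 0.414, 0.862 and 0.974 (limma).

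**Figure D3:**
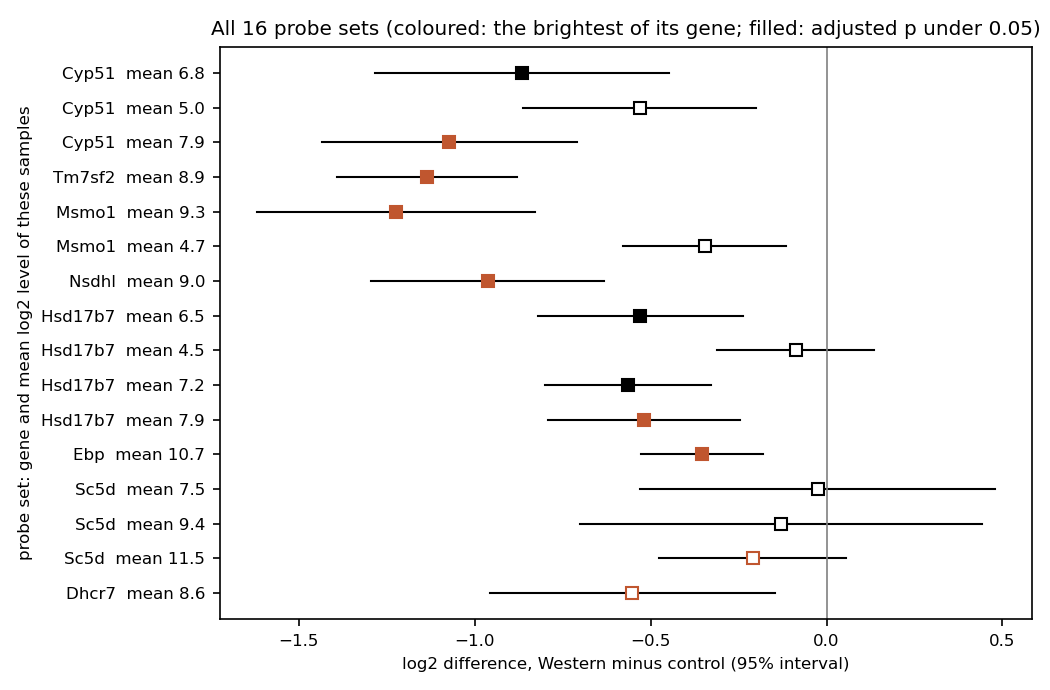
Log2 difference, western minus control, with its 95% interval (x axis) for all 16 probe sets, labelled with their gene and mean level over the 2 groups (y axis); coloured squares are the brightest of each gene, and filled squares passed adjusted p 0.05 over 33778 probe sets. All 16 squares lie below 0, 9 are filled, and the 3 squares of Sc5d are open.

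The samples of each group are numbered 1 to 6 and the mice were housed 3 per cage, but the labels do not say which mice shared a cage or what the numbers mean. Levels of several enzymes differed between samples numbered 1 to 3 and those numbered 4 to 6. In the western group Nsdhl was at 8.90 ± 0.084 in samples 1 to 3 and at 8.31 ± 0.085 in samples 4 to 6 (mean and SD, n = 3 each), and Dhcr7 at 8.67 ± 0.23 and 8.08 ± 0.32. In the quercetin group Msmo1 went the other way, with 8.39 ± 0.20 and 9.02 ± 0.18. Sc5d was lower in samples 4 to 6 of all 3 groups, by -0.39 in control (n = 3 and 2), -0.37 in western and -0.21 in quercetin samples.

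Because of this split, each difference was also taken within both sets of numbers. Between western and control, all 8 differences stayed below 0 in both. They were -0.82 and -1.33 for Cyp51 (samples 1 to 3, then 4 to 6), -0.96 and -1.36 for Tm7sf2, -0.89 and -1.66 for Msmo1, and -0.64 and -1.29 for Nsdhl. They were -0.27 and -0.81 for Hsd17b7, -0.29 and -0.41 for Ebp, -0.18 and -0.16 for Sc5d, and -0.26 and -0.84 for Dhcr7. For 7 of the 8 the difference was thus larger in samples 4 to 6, where the control group holds 2 samples, 1 of them the averaged pair. These differences came from 1 fit over all 17 samples, which shares their spread. In it, 2 of the 8 enzymes passed as lower within samples 1 to 3 (Tm7sf2 and Msmo1), against 1.16% of all genes. Within samples 4 to 6, 5 did (Cyp51, Tm7sf2, Msmo1, Nsdhl and Hsd17b7), against 0.77%. Fitted on samples 1 to 3 alone, only 1 enzyme passed, beside 35 of 13645 genes lower, and Msmo1 did not (limma, adjusted p = 0.0795). On samples 4 to 6 alone Hsd17b7 did not pass (limma, adjusted p = 0.0711). The test of this difference between the sets gave an unadjusted p of 0.0143 for Msmo1, 0.0257 for Nsdhl and 0.0325 for Hsd17b7, but no adjusted p under 0.825 for any enzyme (limma interaction, against 0.00733% of all genes called), and 5.4% of all genes had an unadjusted p under 0.05.

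Between western plus quercetin and western, the sets pointed in opposite directions for 6 of the 8 enzymes. The share of all genes with opposite signs was not computed, so whether this count is unusual was not tested. Msmo1 was -0.45 in samples 1 to 3 and 0.42 in samples 4 to 6, Dhcr7 -0.40 and 0.41, Nsdhl -0.32 and 0.24, Hsd17b7 -0.29 and 0.22, Ebp -0.10 and 0.15, and Sc5d -0.11 and 0.048. Cyp51 was lower in both, at -0.48 and -0.13, and Tm7sf2 higher in both, at 0.029 and 0.13. For Msmo1 the samples behind these values did not overlap within either set: quercetin samples 1, 2 and 3 were at 8.62, 8.27 and 8.28 against 8.96, 8.88 and 8.67 in western, and quercetin samples 4, 5 and 6 at 8.90, 8.92 and 9.23 against 8.73, 8.65 and 8.43. How many of all genes lack overlap in this way was not computed either. For the 6 enzymes with opposite signs, the difference over all samples averaged values of opposite sign. The interaction had an unadjusted p of 0.00484 for Msmo1, 0.0297 for Dhcr7, 0.0342 for Hsd17b7 and 0.0398 for Nsdhl, and adjusted p of 0.806 or more (limma; 0% of 13645 genes called, and 5.36% with an unadjusted p under 0.05).

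**Figure D4:**
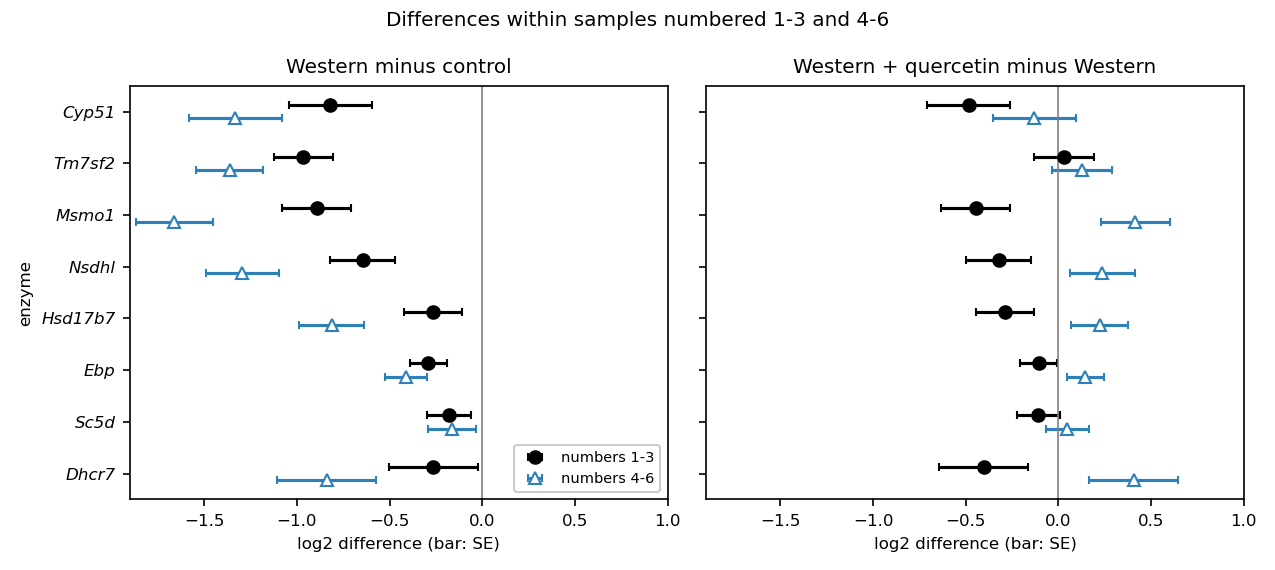
Log2 difference of each enzyme (x axis, with its standard error) within samples numbered 1 to 3 (filled circles) and 4 to 6 (open triangles), for western minus control on the left and western plus quercetin minus western on the right. On the left all points lie below 0, and on the right Msmo1 lies at -0.45 and 0.42 and Dhcr7 at -0.40 and 0.41.

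Within the diet groups, some of the enzymes rose and fell together from sample to sample. With each group's mean removed, 28 pairs of enzymes were correlated over the 17 samples, with p from permuting samples within groups (100000 resamples, two-sided) and Benjamini-Hochberg adjustment over the 28. By Pearson's r, 9 pairs had an adjusted p under 0.05, and by Spearman's rho 8 did. Pairs of other genes were not tested, so whether these counts are particular to the 8 enzymes is not known. Hsd17b7 and Dhcr7 were closest (r = 0.86, permutation p = 0.0001, adjusted 0.00266; rho = 0.90, permutation p = 8e-05, adjusted 0.00224), and r was 0.78 without the 2 samples farthest from the median. Nsdhl and Dhcr7 followed (r = 0.81, permutation p = 0.00019, adjusted 0.00266; rho = 0.82, permutation p = 0.00052, adjusted 0.00597; 0.73 without the 2 farthest samples). For Cyp51 and Dhcr7 r was 0.81 (permutation p = 0.0017, adjusted 0.0119; rho = 0.84, permutation p = 0.00064, adjusted 0.00597; 0.67 without the 2 farthest samples). All values were from arrays scaled together. The permutation treated samples 1 to 3 and 4 to 6 of a group as exchangeable, so shifts shared between these sets count in r and p. With the mean of each set within each diet removed, some other pairs changed. For Msmo1 and Sc5d r went from -0.12 to 0.53, for Hsd17b7 and Sc5d from 0.36 to 0.68, and for Hsd17b7 and Ebp from -0.0057 to -0.43.

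These r were also taken within each set of numbers, from levels with only the diet means removed. Shifts between the sets within a diet therefore remained in them. Hsd17b7 and Dhcr7 had r = 0.77 over the 9 samples numbered 1 to 3 and 0.95 over the 8 numbered 4 to 6. Nsdhl and Dhcr7 had 0.86 and 0.78, and Cyp51 and Dhcr7 0.81 and 0.80. With the mean of each set within each diet removed instead, r over the 17 samples was 0.84, 0.76 and 0.81 for these pairs, in the same order, without a test. Dhcr7, which did not pass the test between diets, was thus in 4 of the 9 pairs. Nsdhl and Sc5d (r = 0.70, permutation p = 0.00635, adjusted 0.0198; rho = 0.625, permutation p = 0.0178, adjusted 0.0554) passed by r and not by rho. Ebp, which fell with the diet, had r between -0.086 and 0.25 with the other seven enzymes, and none of its pairs passed. Its SD among control samples was 0.059, against 0.44 for Dhcr7.

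**Figure D5:**
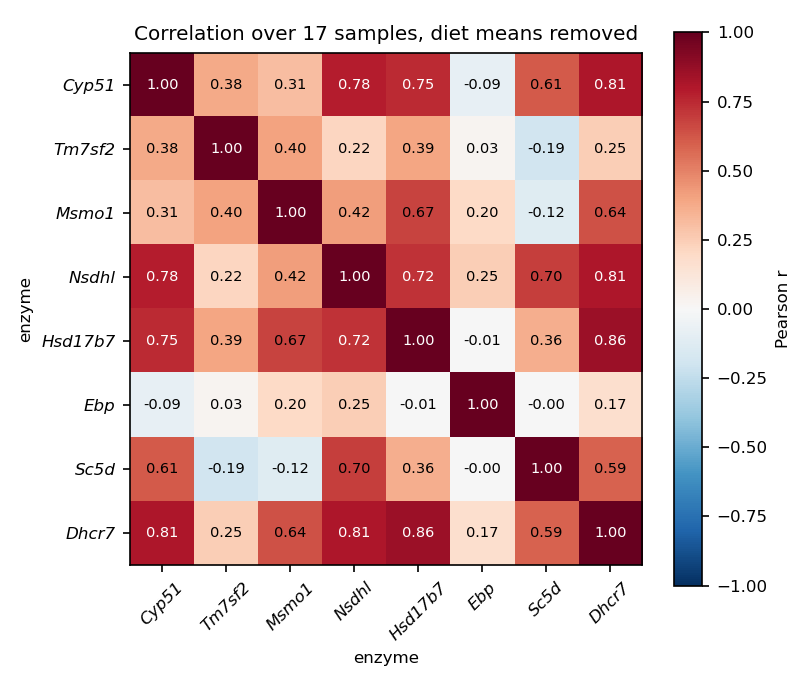
Pearson's r between the levels of each pair of enzymes over 17 samples after each diet group's mean was removed, coloured from -1 to 1. The cells that join Cyp51, Nsdhl, Hsd17b7 and Dhcr7 hold r of 0.72 to 0.86, and the cells of Ebp lie between -0.086 and 0.25.

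The genes outside the family with the level most like the mean z score of the 8 enzymes were ranked over the 17 samples with group means removed, as a description without a test. The 10 closest included Fdps (r = 0.85), Pmvk (0.84) and Sqle (0.77), which are enzymes of the steps before lanosterol. Acss2, which makes acetyl-CoA from acetate, had r = 0.89, and Acacb, an acetyl-CoA carboxylase, had r = 0.88. The others were Ighm (0.90), the heavy chain of immunoglobulin M, Rdh11 (0.84), Haus7 (0.84), E2f7 (0.81) and Rbm38 (0.78). With the group means kept, r was 0.86 to 0.94 for Ighm, Acss2, Fdps, Rdh11, Pmvk and Sqle, but 0.55 for Haus7, 0.41 for Acacb, 0.045 for Rbm38 and -0.027 for E2f7. Over 26 settings r of Ighm ranged from 0.71 to 0.92, that of Acss2 from 0.81 to 0.92, and that of Acacb from 0.58 to 0.93. These samples share their arrays and scaling, and such ranks over 17 samples were not stable: Acacb fell to rank 173 when the probe sets of a gene were averaged.

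The steps that lead to lanosterol were lower on the Western diet as well. Of 9 measured enzymes from mevalonate to lanosterol 6 fell, where 3.16% of all genes did, all 9 differences were below 0, and their median was -0.66, beside -0.015 for all genes. The 6 calls became 2 on the unscaled values and 2 with the actin ratio as a covariate, 0 in a fit on samples 1 to 3 alone and 3 on samples 4 to 6 alone. Sqle, the squalene epoxidase, was at 8.13 ± 0.66 (SD, n = 5) in control and at 6.29 ± 0.69 (SD, n = 6) in western samples, 3.58-fold lower (limma, adjusted p = 0.00256). Idi1, which isomerises isopentenyl diphosphate, was 2.86-fold lower (-1.52 ± 0.23, log2, SE; adjusted p = 0.000646). The farnesyl diphosphate synthase Fdps (-0.66, adjusted p = 0.0417), the squalene synthase Fdft1 (-0.70, adjusted p = 0.0043), the lanosterol synthase Lss (-0.65, adjusted p = 0.0128) and the mevalonate kinase Mvk (-0.43, adjusted p = 0.0210) fell less. The Fdps call was lost in 8 of 15 alternatives (adjusted p up to 0.528) and when any of control 1, 2 or 4-5 or western 4, 5 or 6 was left out (adjusted p up to 0.103). The Mvk call was lost in 5 of 15 (adjusted p up to 0.400) and without control 2 (adjusted p = 0.0528). Of the 15, 4 lost the Fdft1 call (limma, adjusted p up to 0.174) and 4 the Lss call (up to 0.151). The Idi1 and Sqle calls were lost in 1 each (up to 0.104 and 0.158). Between western plus quercetin and control the 6 that passed were also these 6, beside 1.98% of all genes, from -0.68 for Lss to -2.00 for Sqle. There 2 passed on samples 1 to 3 alone and 1 on samples 4 to 6 alone, and Fdps did not pass without control 1 or without control 4-5 (adjusted p up to 0.0583). Of 15 alternatives there, 3 each lost the Fdps and Lss calls, 2 each those of Idi1, Fdft1 and Sqle, and 1 that of Mvk (limma, adjusted p up to 0.340). Mvk had the smallest p of the sterol lists between quercetin and western, -0.33 (limma, unadjusted p = 0.00584, adjusted p = 0.9999).

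Fewer genes passed among those that work beside the 8 enzymes. Of 5 further genes of the steps after lanosterol, 1 fell: Erg28, a scaffold of the demethylating enzymes (-0.34, adjusted p = 0.0146), beside 3.16% of all genes. Its call was lost in 5 of 14 alternatives, among them the unscaled values (-0.073, adjusted p = 0.637). Lbr, which has the same reductase activity as Tm7sf2 and is also a protein of the nuclear envelope, differed by -0.11 (adjusted p = 0.519), Ebpl by -0.080 (adjusted p = 0.544) and Pgrmc1 by 0.045 (adjusted p = 0.691). None of the 4 measured electron donors, cytochrome b5 and its reductases, passed the test, with adjusted p of 0.540 or more. Of 10 regulators of the SREBP2 pathway 2 passed, beside 8.65% of all genes: Scap fell (-0.55, adjusted p = 0.0015) and Srebf1 rose (0.67, adjusted p = 0.0204). Each of these 2 calls was lost in 3 of 15 alternatives, Scap on the unscaled values at -0.28 (adjusted p = 0.0940) and Srebf1 with the actin ratio as a covariate at 0.49 (adjusted p = 0.238). The Srebf1 call was also lost without control 1 (adjusted p = 0.0545). Srebf2, the gene of SREBP2 itself, differed by -0.25 (adjusted p = 0.212).

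Of 9 genes of sterol uptake and transport within the cell 1 fell, beside 3.16% of all genes, the sterol carrier Stard4 (-0.68, adjusted p = 0.00173). Of 11 genes of sterol disposal 3 rose, where 5.49% of all genes did: the cholesterol exporters Abcg1 (0.55, adjusted p = 0.00302), Abca1 (0.37, adjusted p = 0.00498) and Abcg5 (0.52, adjusted p = 0.0286). Leaving out any of 6 samples took Abcg5 to an adjusted p of 0.0539 to 0.0746, and leaving out control 1 took Srebf1 to 0.0545. Of 15 alternatives, 3 lost the Abca1 call (limma, adjusted p up to 0.263) and 3 the Abcg5 call (up to 0.244). The Abcg1 call was lost in 2 (up to 0.0974) and the Stard4 call in 1 (up to 0.210). Cyp7a1, the rate-limiting enzyme of bile acid synthesis, differed by 0.51 with a standard error of 0.59 (adjusted p = 0.659). Between western plus quercetin and control, Scap, Stard4, Srebf1, Abca1, Abcg1, Abcg5 and Erg28 passed in the same directions (3.43% of all genes rose there), and Rnf139 (-0.31, adjusted p = 0.0471) and Ubxn8 (0.31, adjusted p = 0.0338) passed in addition, though these 2 calls were lost in 14 and 9 of the 17 fits with a sample left out. In that comparison the Srebf1 call was lost in 6 of the 17 (adjusted p up to 0.0748), and the Scap call in 5 of 15 alternatives (adjusted p up to 0.154). Alternatives there also lost the Erg28 call 4 times, those of Srebf1, Abca1 and Abcg5 3 times each, and those of Stard4 and Abcg1 2 times each (limma, adjusted p up to 0.337). No gene of these lists passed between the groups fed the Western diet.

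Markers of other liver cell types moved with the diet. Over all genes 5.49% rose and 3.16% fell. Of 14 macrophage and Kupffer cell markers 7 rose, among them Gpnmb (2.49, adjusted p = 0.000157) and Cd68 (1.14, adjusted p = 0.00558), and the summed level of the list ran from 12.22 to 12.49 in control, from 12.77 to 13.53 in western and from 12.47 to 13.89 in quercetin samples. Of 10 stellate cell markers 4 rose, among them Col1a1 (1.78, adjusted p = 0.000764), with summed levels of 11.01 to 11.09, 11.31 to 11.71 and 11.22 to 11.87. Of 10 endothelial markers 1 rose, and of 9 hepatocyte markers 1 fell (Ass1, -0.73, adjusted p = 0.0174), so each of these lists held 1 such gene. No cholangiocyte (4), neutrophil (5), T and B cell (6) or adipocyte and adrenal (4) marker passed, and Krt19 and Cd3e, which define bile duct and T cells, were near the level of the dim filter (4.56), at means of 4.59 and 4.66. The part of these cells in the lower levels of the 8 enzymes was not tested.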

How the data were processed

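Liver RNA of 18 mice was measured on Affymetrix Mouse430_2 arrays, 1 per mouse, in 3 diet groups taken from the labels. The authors deposited 1 linear intensity per probe set and array. How these were summarised and scaled is not given in the sources used here. Of 45101 probe sets 64 controls were left out. Names come from the platform annotation. Here 16 was added before log2, arrays were quantile normalized, the brightest probe set of each gene was kept, and genes under the 25th percentile of the mean (log2 4.56) were left out. Control arrays 4 and 5 had an r.m.s. log2 difference of 0.0461, against 0.152 for the next closest pair, and were averaged. limma 3.58.1 in R 4.3.3 (lmFit, contrasts, eBayes) fitted 17 samples with 1 mean per group. Permutation tests used SciPy 1.17.1 under Python 3.11.15, and figures matplotlib 3.10.9. The scripts were tested on simulated data.

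Alternatives covered scaling, pseudocounts of 1 and 64, dim filters, the choice of probe set, every array as a sample, blocks for the replicate numbers, the actin ratio, both sets of numbers, and each sample left out. The 8 enzymes and all lists were chosen with earlier results of these data known. Named beside the 8 were, of each list, up to 4 genes with the smallest p for western against control, up to 2 for quercetin against western, and those that passed; Srebf2 and Cyp7a1 were added after their values were seen. A planned comparison of protein sequences was not run. Nothing ties mice to cages, so p-values measure the spread between these samples.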

Additional observations from a re-analysis of the deposited data

Results flagged for a closer look

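The difference between western plus quercetin and western pointed in opposite directions in samples numbered 1 to 3 and 4 to 6, in every sample against the western mean of its set, for 3 of the 8 enzymes. The share of all genes that do so was not computed, so whether this count is unusual was not tested. The change from the first set to the second was 0.86 for Msmo1 (95% interval 0.31 to 1.42; limma interaction, unadjusted p = 0.00484, adjusted p = 0.806), 0.81 for Dhcr7 (95% interval 0.091 to 1.53; unadjusted p = 0.0297, adjusted p = 0.913) and 0.51 for Hsd17b7 (95% interval 0.043 to 0.98; unadjusted p = 0.0342, adjusted p = 0.913). The test of this change did not pass for any of them after adjustment over 13645 genes, and 5.36% of all genes had an unadjusted p under 0.05. What the numbers stand for is not given in the labels. Over the groups of 5 or 6 samples, no sample of any member's probe set stood far from the rest of its group.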

How the results depend on the processing

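Leaving out any sample kept the 6 calls against control in both comparisons, and all 8 differences against control stayed below 0 in every alternative. Where a value is given below, the cause of the change was not tested. On the values as deposited, 3725 genes passed between western and control and 3255 between western plus quercetin and control, with 4 and 6 of the 16 member probe sets. With the actin ratio as a covariate 223 and 155 genes passed, with 4 and 5 probe sets. On samples 1 to 3 alone 88 and 224 genes passed, with 1 enzyme between western and control, and with 0 and 5 probe sets. On samples 4 to 6 alone 296 and 32 genes passed, with 3 enzymes between western plus quercetin and control, and with 3 and 2 probe sets. Fitting only the 2 groups compared gave 466 genes between quercetin and control, and a pseudocount of 1 gave 6 probe sets there. Over single samples left out, the gene counts ranged from 748 to 1394 and from 460 to 949, the lowest without western 4 (773 without control 6, 784 without western 5) and without control 6 (479 without quercetin 2, 481 without quercetin 5). The probe sets that passed ranged from 6 to 11 and from 6 to 10.

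For the change between sets of numbers, the western comparison called 0 genes as deposited and with a pseudocount of 1, and 0 to 2 with a sample left out. The quercetin comparison called 1 gene with array medians centred, with the 50th percentile filter and with every array separate, 3 with a pseudocount of 64, and 0 to 2 with a sample left out. Turned in sign, in that change for the western comparison, were Ebp as deposited (0.028) and Sc5d with every array separate (-0.027; -0.11 to 0.15 with a sample left out), and for the quercetin comparison Tm7sf2 (-0.061 to 0.22 with a sample left out).

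Between quercetin and western, where no enzyme passed, differences near 0 turned in sign: Dhcr7 as deposited (-0.0022), with medians centred (-0.032), with a pseudocount of 64 (-0.0034) and in samples 1 to 3 (-0.40), Ebp with medians centred (-0.014) and in samples 1 to 3 (-0.10), Hsd17b7 as the mean of its probe sets (0.043), without its x probe set (0.069) and in samples 4 to 6 (0.22), and in samples 4 to 6 also Msmo1 (0.42), Nsdhl (0.24) and Sc5d (0.048). With a sample left out they ranged from -0.12 to 0.071 for Msmo1, -0.12 to 0.029 for Nsdhl, -0.11 to 0.019 for Hsd17b7, -0.012 to 0.057 for Ebp, -0.10 to 0.018 for Sc5d and -0.13 to 0.11 for Dhcr7. Rnf139, not called between western and control, was at 0.083 as deposited.

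The labels do not say what the replicate numbers share, and not every same-numbered pair went together: 16 of 18 same-numbered pairs correlated above 0.1 (median 0.36, lowest -0.40, against a median of -0.083 for pairs of other numbers), and 11 of 18 arrays correlated best with their own number. With the replicate number as a block, 1143 and 717 genes passed against control, and with a block for the sets 1 to 3 and 4 to 6, 1524 and 1039; the same 6 enzymes passed in both, and no call of an enzyme changed. Arrays give no counts, so the dim probe sets limit what could be seen for the minor probe sets of Cyp51, Msmo1 and Hsd17b7.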
